A study of Hirudo medicinalis with 12 samples.

Results

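Ganglion 19, toward the tail, was compared with ganglion 2, near the head, in the nerve cord of adult medicinal leeches (Hirudo medicinalis). The comparison takes 6 of the 12 libraries of the series by their labels: libraries 3, 6 and 9 of ganglion 19 and libraries 1, 4 and 7 of ganglion 2. No measured value entered that choice. Total RNA of a single chain position was sequenced for each library, from leeches of a farm colony kept under shared conditions. The labels give no genotype, strain or treatment that would set the libraries apart. Library numbers run in threes, each with a ganglion 2, a ganglion 10 and a ganglion 19 library, and such a set is called a run here: run 1 pairs libraries 3 and 1, run 2 libraries 6 and 4, and run 3 libraries 9 and 7. The study describes 3 leeches, but whether a run is a leech is not stated, so the p-values below measure the spread between libraries, which may be technical.

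The leech nerve cord repeats a ganglion in each body segment, with a brain at either end of the chain. Most ganglia hold the same set of identified neurons, such as the paired serotonin-containing Retzius cells, and also glia, muscle fibres and connective tissue of their sheath. Segments nevertheless differ by position, and in leeches, as in other animals, Hox genes are known to be expressed in ordered stretches along the chain. Which of these genes the measured sequences belong to is not described here, because the identifiers carry no gene name and no sequence. For the same reason the tissue could not be checked against marker genes. What was counted is the component, a set of assembled transcript sequences (contigs) that the assembly placed together. In bulk RNA, more cells of a type and more RNA per cell cannot be told apart.

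The 6 libraries differed in make-up as much as the ganglia did. Total counts were 10001860 to 19110631 in ganglion 19 and 6436783 to 13429074 in ganglion 2. Thinned to 6436783 counts, libraries 3, 6 and 9 of ganglion 19 held 20981, 30853 and 23051 components, against 18184, 34151 and 32412 in libraries 1, 4 and 7 of ganglion 2. The means, 24962 ± 5206 in ganglion 19 and 28249 ± 8760 in ganglion 2 (SD, n = 3 each), differed by less than the spread between libraries (exact two-sided permutation p = 0.7, where 3 against 3 cannot go below 0.1). Libraries 3 and 1, which form run 1, stood apart: their 10 most abundant components took 61.1% and 57.6% of the counts, against 26.7% to 36.7% in the other 4 libraries. Of 58593 components, 53455 had a count in these libraries and 17508 had enough counts to be tested.

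The runs agreed little on which components differed between the ganglia. The difference of a component in a run is the log2 ratio of ganglion 19 to ganglion 2, from CPM, the count scaled to library size, with TMM scaling and a prior count of 2. Across the 17508 components, which are not independent replicates, the difference in run 1 had a Pearson correlation of 0.0232 with run 2 and -0.0569 with run 3. Runs 2 and 3 had 0.177. The Spearman correlations were 0.000378, -0.0695 and 0.147. Run 1 also had the widest differences, with a standard deviation of 3.93 log2 units over components, against 2.13 in run 2 and 2.82 in run 3. The more abundant components agreed better. Among the 900 components averaging 100 to 1000 CPM, runs 2 and 3 had a correlation of 0.623, but run 1 had 0.183 with run 2 and -0.14 with run 3. Among the 49 components over 1000 CPM the 3 values were 0.817 between runs 2 and 3, 0.41 between runs 1 and 2 and 0.242 between runs 1 and 3.

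**Figure D1:**
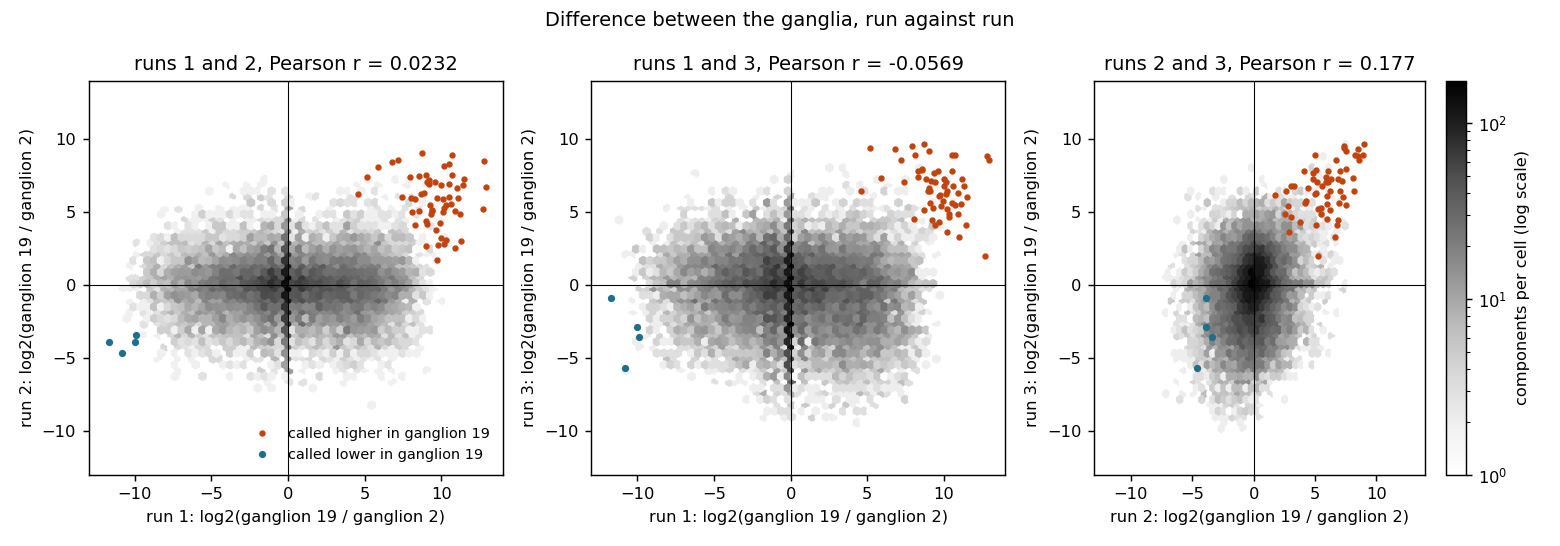
Each panel sets the log2 ratio of ganglion 19 to ganglion 2 in one run (x axis) against another run (y axis) for 17508 components, with shading for the number of components on a log scale. The 59 components called higher (red) and the 4 called lower (blue) in ganglion 19 are marked on the cloud. Those called higher reach down to 4.579 log2 units in run 1, 1.724 in run 2 and 1.977 in run 3. Those called lower reach up to -0.8982 in run 3, so some called components lie inside the cloud. The Pearson correlations over all components are 0.0232, -0.0569 and 0.177.

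Of the components tested, 23.4% kept a single direction. In all 3 runs 2037 components lay higher in ganglion 19, which is 11.6% of those tested, and 2067 lay lower, which is 11.8%. Another 12508 components (71.4%) changed direction between runs, and 896 had at least 1 run with no counts in either library and no run against the others. A stricter reading asks that every ganglion 19 library lie on the same side of every ganglion 2 library, whatever the pairing. It was met by 923 components above (5.27%) and 836 below (4.77%). Libraries falling in random order would give shares of about these sizes, for a single direction and for groups that do not overlap. The counts alone are thus no sign that these components differ between the ganglia. TMM scaling centres the differences near 0, so an even balance is largely set by the scaling and is no finding. It moved with the settings: total count scaling gave 663 above and 804 below, leaving out library 1 gave 1525 and 2758, and leaving out library 3 gave 1916 and 1233. Without a library fewer must lie apart, which random order meets more often, so the larger numbers are no finding.

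A single direction was more common among abundant components, where abundance is the CPM of a component and not a level per length, since contig lengths were not used here. Under 10 CPM, 8.88% of 9186 components lay higher and 11.1% lay lower in ganglion 19 in all 3 runs. From 10 to 100 CPM the shares were 14.3% and 12.5% of 7373 components, and from 100 to 1000 CPM they were 17.2% and 12.6% of 900. Over 1000 CPM, 12 of 49 components lay higher and another 12 lay lower, 24.5% each way. A run with no counts in either library gives no direction, which can lower the shares among scarce components. The shares over all tested, 11.6% and 11.8%, were about those of random order. The median level was 14.3 CPM among those higher, 10.3 CPM among those lower and 9.11 CPM over all tested. Components with a single contig made up 61.8% of those higher, 67.9% of those lower and 67.5% of all tested.

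**Figure D2:**
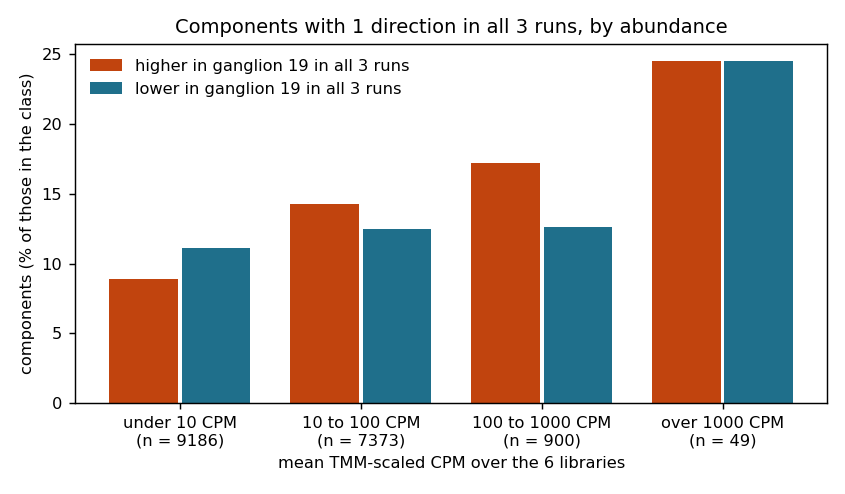
Bars give the share (%, y axis) of components that lay higher (red) or lower (blue) in ganglion 19 in all 3 runs, in 4 classes of mean TMM-scaled CPM over the 6 libraries (x axis). Both shares are largest over 1000 CPM, at 24.5% each, in a class of 49 components.

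These components held a large part of the RNA. Those higher in all 3 runs took 50.6%, 20.8% and 32.1% of the counts in libraries 3, 6 and 9 of ganglion 19, against 3.4%, 6.43% and 6.9% in libraries 1, 4 and 7 of ganglion 2. Those lower took 4.27%, 15.0% and 7.1% in ganglion 19 libraries 3, 6 and 9, against 10.7%, 28.7% and 24.9% in ganglion 2 libraries 1, 4 and 7. The direction within each run is what chose the components, so the direction of these shares is no finding. Without the most abundant component of those higher, described next, the shares were 14.4%, 13.0% and 18.6% in ganglion 19 libraries 3, 6 and 9, against 2.12%, 6.36% and 6.86% in ganglion 2 libraries 1, 4 and 7.

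The typical size of the difference was alike in both directions, and the largest differences were mostly higher in ganglion 19. The median over components of the middle of the 3 run differences was 1.72 log2 units among those higher and -1.75 among those lower. A difference of at least 2-fold in every run was reached by 732 higher and 712 lower components. At least 8-fold in every run was reached by 178 higher and 80 lower components, and at least 32-fold by 45 higher and 3 lower. In pairs of runs this lean was present only in runs 1 and 2, with 445 components at least 8-fold higher and 311 at least 8-fold lower. Runs 2 and 3 gave 310 and 395, and runs 1 and 3 gave 482 and 484. The prior count moved the numbers too, to 229 higher and 168 lower with 0.5 and to 82 higher and 14 lower with 8. In 73 components (0.417% of those tested) every ganglion 19 library had at least 10 counts and no ganglion 2 library had any. The opposite was found in 30 (0.171%). With every library thinned to 6436783 counts, as total counts differed, these numbers were 66 and 31.

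**Figure D3:**
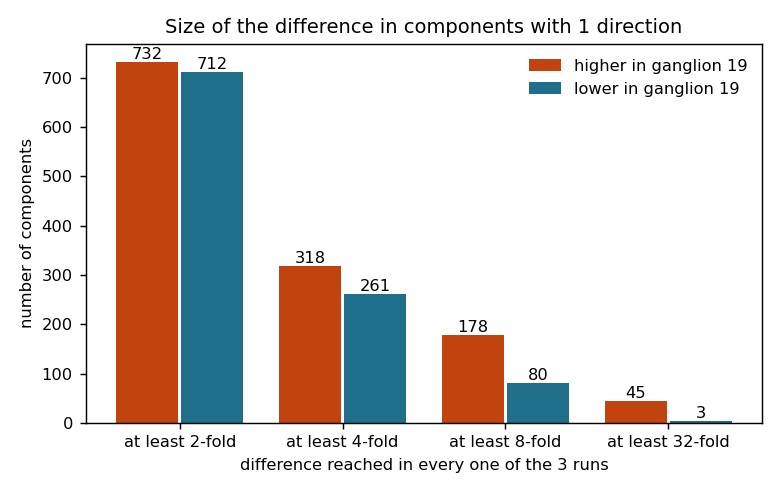
Bars count the components (y axis) with a single direction in all 3 runs whose difference reached the given fold in every run (x axis), higher (red) or lower (blue) in ganglion 19. The counts are 732 and 712 at 2-fold and 45 and 3 at 32-fold.

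The most abundant component with a single direction was comp10_c0, a single contig, which is named here after its values were seen. It took 36.2%, 7.77% and 13.6% of all counts in libraries 3, 6 and 9 of ganglion 19, against 1.28%, 0.0687% and 0.0401% in libraries 1, 4 and 7 of ganglion 2. Counting error is small here, with a 95% Wilson interval of 0.0667% to 0.0708% in library 4, the shallowest, and the spread between libraries is far larger. Each ganglion 19 library lay above every ganglion 2 library, and the differences in runs 1, 2 and 3 were 4.58, 7.07 and 8.68 log2 units. On TMM-scaled sizes its mean was 263000 ± 294000 CPM in ganglion 19, against 8650 ± 14300 CPM for ganglion 2 (SD, n = 3 each). Its log2 fold change of 4.93 (SE 1.28) did not pass edgeR's quasi-likelihood test with Benjamini-Hochberg adjustment (adjusted p = 0.107). With the run as a block it did, at 6.82 (SE 0.94, adjusted p = 6.69e-09), and its call changed with the libraries too. Without the block it passed when library 3, 4, 6, 7 or 9 was left out (edgeR adjusted p from 3.34e-07 to 0.0215, log2 fold change 3.51 without library 3). It did not pass when library 1 was left out, at 9.37 (adjusted p = 0.0931). Ganglion 10 lay between the ends in each run, with comp10_c0 at 14.4% of the counts in library 2, 0.797% in library 5 and 0.151% in library 8. Libraries 2 and 1 of run 1 thus held more of it than the other libraries of ganglia 10 and 2.

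The next most abundant of those higher, another single contig, behaved much like it. It had 47630, 4091 and 7928 CPM in libraries 3, 6 and 9 of ganglion 19, against 3794, 57.7 and 13.65 CPM in libraries 1, 4 and 7 of ganglion 2. It too passed with the run as a block (edgeR adjusted p = 9.31e-06) and not without it (0.41). The third had 14790, 11590 and 23700 CPM in ganglion 19, against 514.3, 3204 and 2493 CPM in ganglion 2, and passed neither fit (adjusted p = 0.252 without and 0.0594 with the block). Its groups did not overlap, and its level in ganglion 19 was the steadiest of the 3, at 16700 ± 6280 CPM (SD, n = 3).

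On the lower side the abundant components differed by far less. The most abundant, a single contig, had 17750, 30200 and 14120 CPM in libraries 3, 6 and 9 of ganglion 19, against 40930, 49360 and 44100 CPM in libraries 1, 4 and 7 of ganglion 2. The means were 20700 ± 8430 CPM in ganglion 19 against 44800 ± 4260 CPM in ganglion 2 (SD, n = 3 each), and the groups did not overlap. The log2 fold change of -1.11 (SE 0.78) did not pass edgeR's test (adjusted p = 0.999). Of the 12 components over 1000 CPM that lay lower in all 3 runs, none passed either fit, and the median of their middle run difference was -0.95 log2 units. For the 12 that lay higher it was 1.99, and 2 passed with the block.

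The test asked which components differed by more than the spread between libraries. edgeR's quasi-likelihood test, on counts summed per component, called 63 of 17508 components at an adjusted p under 0.05. Of these, 59 (0.337%) were higher and 4 (0.0228%) lower in ganglion 19. At an unadjusted p under 0.05 the balance was not of this kind, with 395 higher and 488 lower. Nor was it with 3 alternatives fitted to the same 6 libraries, or with some libraries left out, as given below. DESeq2 called 131 higher and 91 lower, among them 31 of the 59 and 0 of the 4. edgeR without a count filter called 205 higher and 233 lower. DESeq2 with the run as a block called 270 higher and 303 lower, among them all 59 and 3 of the 4. Other settings on these 6 libraries kept most calls on the higher side, such as limma voom with 199 higher and 19 lower and RLE scaling with 35 and 1. All 63 had a single direction in all 3 runs, and in all 63 the ganglia did not overlap. The test on these same libraries favours such components, so this is no separate support for the calls. The 59 averaged 35.1 to 905 CPM in ganglion 19, with a median of 113 CPM, and at most 11.4 CPM in ganglion 2, with a median of 0.0519 CPM. The fitted log2 fold changes of the 59 lay between 5.33 and 13.88, and their median was 10.6. In 18 of them no ganglion 2 library had a count, so their fitted fold depends on the prior count and is no bound. From pooled counts, with those 18 set at 3 counts over the ganglion 2 group, the median was 9.28 log2 units.

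The calls depended on single libraries. The number called was 0 without library 1, where the smallest adjusted p was 0.0535 and 2498 components had an unadjusted p under 0.05. It was 63 without library 3, with 35 higher and 28 lower, and only 15 of the 59 were among them. It came to 133 when library 6 was left out (103 higher and 30 lower) and 194 for library 9 (163 and 31). The balance was more even without library 4, at 115 (67 and 48), and without library 7, at 135 (78 and 57). With libraries 1 and 3 both left out, edgeR called 0. The smallest adjusted p was then 0.0648, and 2653 components had an unadjusted p under 0.05. With the run as a block, the same 4 libraries gave 248 calls, 108 higher and 140 lower, so the block decides whether anything is called there. That fit had fewer residual degrees of freedom than the 2 of the block fit to 6 libraries. Its calls thus rest largely on the spread pooled over components. Leaving out a library also loosened the count filter, which then kept 21353 to 24305 components, and these effects cannot be told apart. No other tool was run on these subsets.

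Of the 59, 53 were at least 8-fold higher in every run, as were 178 of all 17508 tested. The test favours such components. In runs 1, 2 and 3 the median difference of the 59 was 9.70, 5.99 and 6.67 log2 units, and the smallest was 4.58, 1.72 and 1.98. The median was largest in run 1. Of the 59, 30 had a single contig. In the other 29, every one of the 104 contigs with at least 10 counts was higher in ganglion 19 in pooled counts. Ganglion 2 held few counts of most of these components. The call and the count limit thus largely set this direction, and it is no separate support.

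The libraries of run 1 were often the highest of their ganglion for these components, most clearly in ganglia 19 and 10. Among the 59, library 3 had the highest CPM of the ganglion 19 libraries in 57, where over all tested components it was highest in 28.4%. Library 2 had the highest CPM of the 6 ganglion 10 libraries in 48 of the 57 with any count there, against 22.6% over all tested. Library 1 was the highest ganglion 2 library in 25 of the 41 with any count there, against 30.5%. In ganglion 2, however, 34 of the 59 had no count in library 1, 25 had none in library 4 and 45 had none in library 7. What sets run 1 apart was not tested. The mean over the 6 ganglion 10 libraries had a median of 2.77 CPM over the 59, and library 2, highest in 48 of the 57, raised it. In 26 of the 59 every ganglion 19 library lay above every ganglion 10 library. No share over all tested components stands beside that count. The call favours components high in ganglion 19, so the count is no finding.

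**Figure D4:**
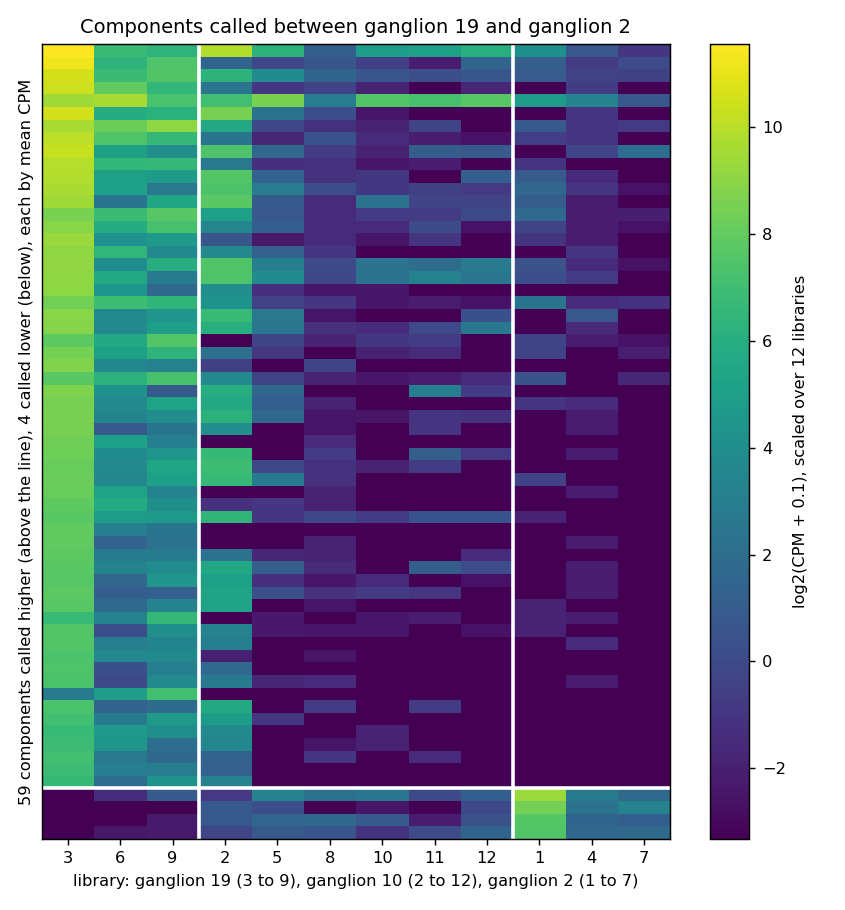
Colour gives log2(CPM + 0.1), scaled over 12 libraries, for the 59 components called higher and the 4 called lower in ganglion 19 (rows, each set ordered by mean CPM). Libraries are columns, grouped as ganglion 19, ganglion 10 and ganglion 2. Library 3 is the highest of its ganglion in 57 of the 59 upper rows, and library 1 is the highest of ganglion 2 in all 4 lower rows.

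By the rule for naming, the smallest p in each direction, comp655_c0 and comp5782_c0 rose. comp655_c0, a single contig, had 4365, 3147 and 9458 counts in libraries 3, 6 and 9 of ganglion 19, against 9, 3 and 7 counts in libraries 1, 4 and 7 of ganglion 2. In TMM-scaled CPM these were 654.5, 255.7 and 459.1 in ganglion 19 and 1.4, 0.32 and 0.3999 in ganglion 2. It was high in each ganglion 19 library and nearly silent in each ganglion 2 library. The means were 456 ± 199 CPM in ganglion 19 against 0.707 ± 0.602 CPM in ganglion 2 (SD, n = 3 each). The log2 fold change was 9.36 with SE 1.38 and an edgeR adjusted p of 0.0019. The differences in runs 1, 2 and 3 were 8.71, 9.04 and 9.67 log2 units, and pooled counts gave a 752-fold difference (exact 95% counting interval 481 to 1250). The call was lost without library 1, where the log2 fold change was 10.24 (adjusted p = 0.0535). It was also lost without libraries 1 and 3 (edgeR adjusted p = 0.0648) and in the fit to all 12 libraries (0.153). With the block it was lost without run 2 (0.391) or run 3 (0.161). In ganglion 10 it had 341 counts in library 2 and at most 8 in each of the other 5 libraries.

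comp5782_c0, also a single contig, had 7780, 2682 and 1585 counts in libraries 3, 6 and 9 of ganglion 19, against 0, 4 and 0 counts in libraries 1, 4 and 7 of ganglion 2. These were 1167, 217.9 and 76.94 CPM in ganglion 19 and 0, 0.4266 and 0 CPM in ganglion 2. The ganglion 19 libraries differed widely among themselves, and all lay above ganglion 2. The means were 487 ± 593 CPM in ganglion 19 against 0.142 ± 0.246 CPM in ganglion 2 (SD, n = 3 each). The log2 fold change was 11.68 with SE 1.76 and an edgeR adjusted p of 0.0019. Pooled counts gave a 2530-fold difference with an exact 95% counting interval of 990 to 9300, wide because ganglion 2 held 4 counts in all. Without library 1 the log2 fold change was 11.24 and did not pass (adjusted p = 0.164). Nor did comp5782_c0 pass without libraries 1 and 3 (edgeR adjusted p = 0.205) or, with the block, without run 3 (0.0725). Without the block it passed when any other single library was left out, at 9.99 to 15.54. The highest of these values was without library 4, which left ganglion 2 at 0 counts, so that its size depends on the prior count. Ganglion 10 had 34 counts in library 2 and 0 to 9 in the other libraries.

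The components named as lower, comp26639_c0 and comp15522_c0, rested on library 1. comp26639_c0, of 2 contigs, had no counts in any ganglion 19 library, against 1901, 37 and 145 counts in libraries 1, 4 and 7 of ganglion 2. It averaged 103 ± 167 CPM in ganglion 2 (SD, n = 3) and was at least 825-fold lower in ganglion 19, with the floor set by 3 counts over the group (edgeR adjusted p = 0.00549). Library 1 held 91.3% of its ganglion 2 counts, and without that library it did not pass (adjusted p = 0.316), although the fitted log2 difference was still -9.35, against -13.28 with it (sizes that depend on the prior count), and both other ganglion 2 libraries held it and no ganglion 19 library did. comp15522_c0, a single contig, had 0, 0 and 2 counts in libraries 3, 6 and 9 of ganglion 19, against 1089, 21 and 31 counts in libraries 1, 4 and 7 of ganglion 2. In pooled counts it was 678-fold lower in ganglion 19 (exact 95% counting interval 187 to 5600), and edgeR gave a log2 difference of -10.12 with SE 2.30 (adjusted p = 0.0415). Library 1 held 95.4% of its ganglion 2 counts, and the value was -5.39 when it was left out (adjusted p = 0.447). Without library 6 the call was lost as well (-9.62, adjusted p = 0.0592). In all, the call of comp15522_c0 was lost in 13 of 21 other settings, among them the run as a block (edgeR adjusted p = 0.214) and RLE scaling (0.0508). That of comp26639_c0 was lost in 7 of 21, among them limma voom (adjusted p = 0.0829) and every block fit with a run left out. In all 4 components called lower, library 1 held 91.3% to 97.1% of the ganglion 2 counts. Their differences in run 1 ran from -11.70 to -9.89 log2 units, against -4.64 to -3.41 in run 2 and -5.68 to -0.90 in run 3.

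**Figure D5:**
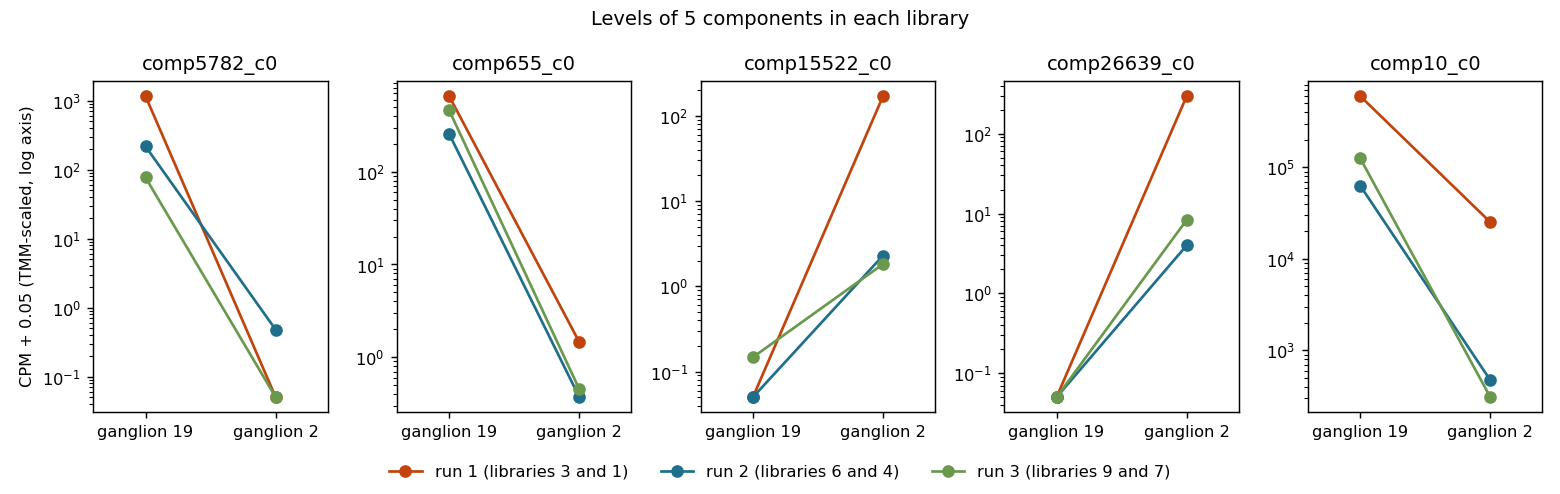
Points give TMM-scaled CPM plus 0.05 (log axis) in ganglion 19 (left) and ganglion 2 (right) for 5 components, and a line joins the libraries of a run. In comp655_c0 and comp10_c0 all 3 lines start far higher in ganglion 19, while in comp26639_c0 and comp15522_c0 the run 1 library of ganglion 2, at 295.7 and 169.4 CPM, stands far above the others.

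With the run as a block, a similar number of components was called, and most of those higher were shared. edgeR then called 69 higher (0.394%) and 4 lower (0.0228%). Of the components called higher, 52 were called in both fits, 88.1% of the 59 without the block and 75.4% of the 69 with it. Only 1 component, comp26639_c0, was called lower in both (adjusted p = 0.000322 with the block). In the other 3 called lower with the block, the highest ganglion 2 library held 73.5% to 76.3% of the counts, which was library 7 in 2 of them and library 1 in 1. They averaged 0.19, 9.31 and 1.08 CPM in ganglion 19, against 62.8, 261 and 99.6 CPM in ganglion 2. All 69 and all 4 had a single direction in all 3 runs, which the fit with the block itself favours. In the 69 the median difference was 9.02, 6.05 and 7.07 log2 units in runs 1, 2 and 3, and in 66 of them the ganglia did not overlap. The block fit had 2 residual degrees of freedom and an infinite prior, so its p-values rest on the spread pooled over all components. They changed with the runs: 248 components were called without run 1 (108 higher and 140 lower), 2 without run 2 and 0 without run 3, where the smallest adjusted p was 0.0725 and 284 components had an unadjusted p under 0.05.

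Ganglion 10 lay between the other ganglia in every run in a minority of components. Among components higher in all 3 runs, 203 of 2037 (9.97%) had ganglion 10 between ganglion 19 and ganglion 2 in every run, comp10_c0 among them. Among those lower, it was 145 of 2067 (7.02%). These counts depend on the run numbers and leave out ganglion 10 libraries 10 to 12. Random order would also place ganglion 10 between in some components, and that share was not computed. The lanes of the sequencer were not spread evenly, with libraries 3, 6 and 4 in lane 8, libraries 9 and 1 in lane 4 and library 7 alone in lane 2. With the lane as a term, edgeR called 29 higher and 2 lower components, of which 25 and 2 were among those called without it.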

How the data were processed

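RNA was extracted with a lipid tissue kit and sequenced on an Illumina HiSeq, per the labels' protocols. The deposited table gives whole-number counts per contig for libraries 1 to 9, and no label says whether the authors had rounded them. The values of libraries 10 to 12 are expected counts as deposited by the authors, not whole, and were rounded here. FastQC, RSEM, TopHat and Cufflinks are named in the submitters' processing notes, without order. The assembler, its filters and the handling of reads shared by contigs, not given in the sources used here, could shift counts between components. The 76845 contigs were summed to 58593 components by dropping the final sequence number of the identifier.

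filterByExpr of edgeR 4.0.16, with a minimum count of 10, chose the components tested. TMM scaling factors ran from 0.536 in library 1 to 1.52 in library 4. The quasi-likelihood test was fitted to the 6 libraries, without and with the run as a factor, with Benjamini-Hochberg adjustment over 17508 components. The biological coefficient of variation was 1.38. Standard errors come from the F statistic. Levels of ganglion 10 are on a scale set over all 12 libraries. In simulated data for this comparison, with 200 of 17508 components changed, the fit without the block recovered 27 of 50 components made 64-fold higher, 1 of 50 lowered by as much, and 0 of 50 changed 8-fold in either direction. With the block these were 15, 0 and 0. Raising a component adds counts and lowering it removes them. The recovery of 27 against 1 is thus no measure of a lean in direction in the real data. No unchanged component was called. Whether the simulated libraries had the uneven make-up of run 1 was not tested. The absence of such calls thus gives no rate of false calls in the real data.

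At most 2 components in each direction are named by smallest p among those with a single direction in all runs, since identifiers carry no gene name. The comparison, rule and tests were chosen with earlier results of these data known. Alternatives were DESeq2 1.42.0, limma 3.58.1 voom with library weights, other scalings, filters and prior counts, the lane as a term, all 12 libraries, contigs in place of components, identical contigs counted once, and leaving out libraries or runs. Intervals and floors reflect counting error alone, as PCR duplicates are not separate molecules. R 4.3.3 and Python 3.11.15 were used.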

Additional observations from a re-analysis of the deposited data

Results flagged for a closer look

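In the 6 ganglion 10 libraries, 3 of the 5 named components had 1 library far above the others, its gap to the next exceeding Dixon's 95% limit, which chance passes in about 1 of 20 groups. In all 3 this was library 2, with 158100 CPM of comp10_c0, 50.99 CPM of comp655_c0 and 5.084 CPM of comp5782_c0. These groups share their libraries and are not separate findings.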

How the results depend on the processing

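The number of components called, 63 without the block, was 222 with DESeq2 (131 higher and 91 lower). It was 573 with DESeq2 and the replicate block (270 and 303), 438 without a filter (205 and 233) and 218 with limma voom (199 and 19). RLE scaling gave 36 (35 and 1), the lane as a term 31 (29 and 2), all 12 libraries 6 (6 and 0) and contigs 13 (12 and 1). The number stayed within 1.5 times of 63 with the replicate block, at 73. So it did with upper quartile scaling, total count scaling, the stricter filter and identical contigs counted once. Leaving out 1 library gave 0 to 194, libraries 1 and 3 together 0 and, with the block, leaving out 1 run 0 to 248. Libraries of a run did not deviate together: the correlation of their deviations from the ganglion means was -0.00913, 0.0637 and -0.0435, so the run numbers were not taken to pair the libraries, although libraries 3, 2 and 1 of run 1 each had the highest share of counts in 10 components within their ganglion. Of the 6 libraries, 2 (libraries 6 and 4) correlated best with the library of their own run.

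Components with a single direction numbered 4104, and 4042 to 4089 under other scalings, of which 43.4% to 48.0% were higher against 49.6%. Total count scaling moved the median of all components by -0.149 log2 units. In pairs of runs the number was 7426 to 9531, as fewer runs must agree. Ganglia did not overlap in 1759 of 17508 components, and in 2809 of 53455 without a filter. Leaving out 1 library gave 2824 to 4283 of 17508. Fewer libraries must then lie apart, so the larger numbers are largely set by group size. No named component changed sign in any setting. Each was picked among components with a single direction in all 3 runs, which largely sets this, so it is no separate support. Total count scaling of the calls, leaving out libraries 1 and 3 together, thinning for components held by 1 ganglion and the size counts under other settings were chosen after seeing the data. Changes of 8-fold were not detected at this depth and spread in simulated data.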
